A study of Mus musculus with 4 samples.

Results

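The 10 genes described here encode transcription regulators of the TGF-beta and BMP pathways, 6 SMAD proteins (Smad1, Smad2, Smad3, Smad4, Smad6 and Smad7) and 4 inhibitor of DNA binding (ID) proteins (Id1, Id2, Id3 and Id4). They were chosen by gene name among the 31829 gene names on the array, and were read by 13 probes, with 1 probe for each of 7 genes and 2 probes for each of Smad1, Smad3 and Smad4. The samples were mouse embryonic fibroblasts (MEFs), cells grown out from embryos, of wild-type (p53+/+, WT) or p53-/- genotype. MEFs of each genotype were left untreated or were given doxorubicin, a topoisomerase poison that breaks DNA, and RNA of each of the 4 conditions was hybridized to 1 one-color Agilent array. The study looked for genes under p53 control that encode modulators of myosin. The dose and time of doxorubicin on the arrays, the number of embryos behind each genotype and the age of the cultures were not given in the sources used here. With 1 array per condition, the differences below have no replicate check and could not be tested. Position on the single slide, and the culture that the RNA came from, cannot be told apart from the condition.

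Ligands of the TGF-beta family bind paired serine/threonine kinase receptors, which phosphorylate the receptor SMADs. BMP receptors act on SMAD1, SMAD5 and SMAD9 and TGF-beta and activin receptors on SMAD2 and SMAD3, and these proteins enter the nucleus with the shared partner SMAD4. SMAD6 and SMAD7 are inhibitory members that are themselves induced by the pathways. ID proteins are among the best known targets of BMP signaling. They hold a helix-loop-helix domain without a DNA-binding region, so that they trap E proteins and other bHLH factors away from DNA, and in fibroblasts they are known for delaying senescence and differentiation.

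A level below is the processed signal of a probe divided by the 75th percentile signal of its array, which was 2074 in untreated WT, 1819 in doxorubicin-treated WT, 1881 in untreated p53-/- and 2421 in doxorubicin-treated p53-/- MEFs. Levels of different probes are not comparable, since probes differ in brightness. Values were compared within a probe as log2 ratios, and a ratio of at least 2-fold was called higher or lower. Repeat spots of the same probe on the same array give a standard deviation (SD) of 0.11 for a log2 ratio and 0.16 for a difference of 2 log2 ratios, which covers spot error only. All 13 probes were well above background on all 4 arrays, so that none of the 10 genes was lost to a filter.

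The arrays were first checked against their labels. The Trp53 probe had signals of 1228 and 3442 in untreated and doxorubicin-treated WT MEFs, and of 442 and 543 in the p53-/- MEFs, and whether this probe lies in the deleted part of the gene was not given in the sources used here. The p53 target Cdkn1a was lower in p53-/- than in WT MEFs by a log2 ratio of -4.73 without and -4.58 with doxorubicin, and it rose with doxorubicin in both genotypes (2.08 in WT, 2.23 in p53-/- MEFs). These values are of the brighter Cdkn1a probe. A dimmer probe had signals of 1891 and 3692 in WT MEFs (log2 ratio 1.16) and of 11.3 and 96.2 in p53-/- MEFs. Both of its p53-/- signals were below the brightest negative control spots, and the untreated one was not well above background. All 10 fibroblast markers (among them Col1a1, Col1a2, Vim and Thy1) were well above background on all 4 arrays. Their summed level fell from 733 to 578 with doxorubicin in WT MEFs and from 583 to 487 in p53-/- MEFs, and Col1a2 (levels of 294, 210, 258 and 148) gave the largest part of it. With doxorubicin Pdgfra, Pdgfrb, Dcn and Lum were at least 2-fold lower in WT MEFs, and Pdgfrb and Lum in p53-/- MEFs. Without it Dcn, Lum and S100a4 were at least 2-fold lower in p53-/- than in WT MEFs. The leukocyte marker Ptprc was called well above background on all 4 arrays but stayed below the brightest negative control spot of each. The leukocyte-list genes Itgam and Csf1r were above that spot on all 4, and Lyz2 on the WT arrays only. The other lists were mixed as well. The endothelial marker Cdh5, the epithelial marker Epcam and the muscle genes Myod1 and Ckm were not well above background on any array, while the endothelial-list genes Kdr and Pecam1, the epithelial keratin Krt14 and the muscle myosin Myh3 were on all 4. The epithelial keratin Krt5 reached a signal of 951 in treated WT MEFs and was not well above background on the other 3 arrays. The leukocyte marker Cd68 (signal of 211) and the endothelial marker Tek (77.7) were likewise well above background in treated WT MEFs only. The epithelial marker Cdh1 was well above background only with doxorubicin, with signals of 56.2 in WT and 130 in p53-/- MEFs. The muscle gene Myog was so in untreated WT MEFs only (75.2). In untreated p53-/- MEFs, the signals of Pecam1 (168) and Krt14 (179) were below the brightest negative control spot. Summed levels weigh probes by their brightness. Over the 4 arrays the summed level lay between 14.1 and 19.2 for the 5 leukocyte markers on the array (of which Itgam gave 11.7 to 17.4), between 2.33 and 4.20 for 4 endothelial markers, between 0.160 and 1.02 for 4 epithelial markers (highest in treated WT MEFs) and between 0.0970 and 0.438 for 4 muscle markers (highest in untreated WT MEFs). The part of these markers in the results below was not tested, and in RNA from whole cultures fewer cells of a type and less RNA per cell cannot be told apart.

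Among the 10 genes, Id2, Id3 and Id1 varied most over the 4 conditions. Id2 spanned 1.85 log2 units from its lowest to its highest level, Id3 1.47 and Id1 1.31. Smad6 followed with 0.83 and Id4 with 0.68, and the narrowest span was that of Smad2, 0.26. With doxorubicin in WT MEFs, 1 of the 10 genes (Id2) was at least 2-fold higher, while 11.0% of 17546 measured genes were, and 0 were at least 2-fold lower, against 10.4% of genes. In p53-/- MEFs, 2 of the 10 (Id1 and Id2) were at least 2-fold higher, against 9.24% of 16981 genes, and 0 were lower, against 6.89%. For the 4 ID genes the median of these log2 ratios was 0.62 (WT) and 0.98 (p53-/-), for the 6 SMAD genes it was 0.03 and -0.18, and for all genes 0.01 and 0.00.

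**Figure D1:**
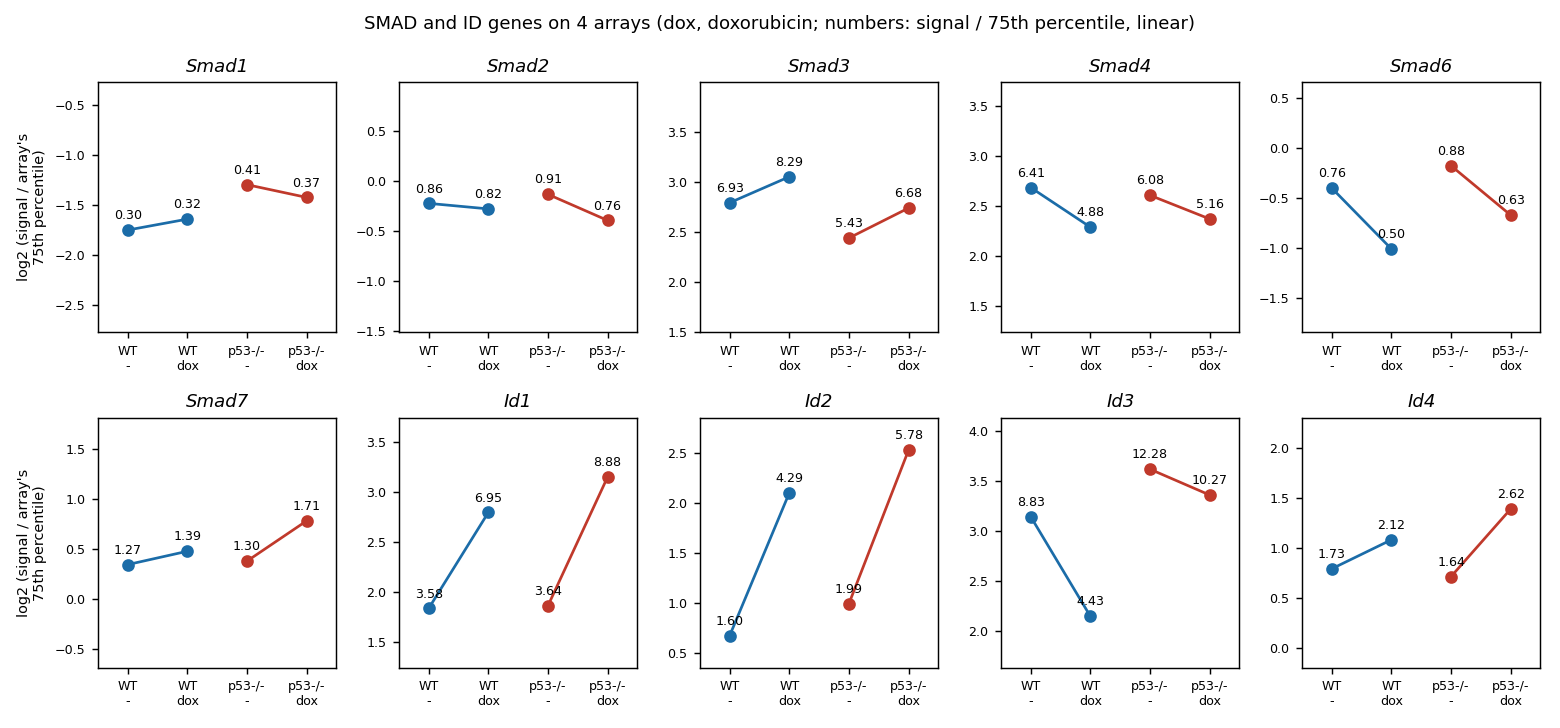
Level of each of the 10 genes (log2 of the signal over the array's 75th percentile, y axis, the same span of 2.5 units in each panel) in untreated (-) and doxorubicin-treated (dox) WT (blue) and p53-/- (red) MEFs, 1 array per point, with the linear level printed beside each point. Id1 and Id2 were higher with doxorubicin in both genotypes, Id3 was lowest in doxorubicin-treated WT MEFs, and the SMAD genes moved less.

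The sequences just before the transcription start are shown for Id2, Id3 and Id4, the ID genes that had an entry, while Id1 had none. The letters that SMAD proteins are known to bind can be looked for there, and any link of these letters to the responses was not tested. They are the 250 bases before the start of each gene in RefSeq (build GRCm38.p6), 5′ to 3′ on the strand of the gene. Of the 10 genes, 6 had an entry that could be searched (Smad1, Smad3, Smad6, Id2, Id3 and Id4). Capitals mark GGCGCC, the GC-rich motif of BMP-activated SMADs, and CAGAC, the core of the SMAD-binding element, on either strand (GTCTG is CAGAC on the other strand). The windows are chr12:25096093-25096342 (minus strand) for Id2, chr4:136143572-136143821 (plus strand) for Id3 and chr13:48260866-48261115 (plus strand) for Id4.
Id2: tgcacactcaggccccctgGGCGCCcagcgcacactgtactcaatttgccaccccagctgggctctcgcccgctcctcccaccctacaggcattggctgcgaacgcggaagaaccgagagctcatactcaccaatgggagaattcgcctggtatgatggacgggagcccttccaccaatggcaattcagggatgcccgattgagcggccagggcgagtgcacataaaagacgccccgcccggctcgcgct
Id3: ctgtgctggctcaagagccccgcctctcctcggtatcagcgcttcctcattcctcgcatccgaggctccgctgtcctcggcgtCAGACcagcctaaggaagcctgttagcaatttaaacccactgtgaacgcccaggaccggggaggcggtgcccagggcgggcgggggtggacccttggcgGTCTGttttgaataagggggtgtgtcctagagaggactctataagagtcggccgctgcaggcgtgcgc
Id4: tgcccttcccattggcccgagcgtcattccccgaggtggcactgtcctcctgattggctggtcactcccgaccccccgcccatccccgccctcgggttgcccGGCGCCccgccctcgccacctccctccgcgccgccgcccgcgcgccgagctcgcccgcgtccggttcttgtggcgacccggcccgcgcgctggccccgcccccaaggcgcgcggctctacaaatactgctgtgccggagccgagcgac
GGCGCC was present in Id2, 231 bases before the start, and in Id4, 148 bases before it, and in none of the other 4 windows. It was held by 9.59% of 32851 windows of the same length. CAGAC was present in Id3 only, 167 and 68 bases before the start, and in 42.2% of all windows. The E-box CANNTG, the site of bHLH factors, was present in Id2 only, 196 bases before the start, and in 66.2% of all windows. These matches are a description of the letters and are no measure of binding, and the 3 motifs do not overlap each other in these windows.

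Id2 was the gene with the largest response to doxorubicin in both genotypes. ID2 is an inhibitor of E proteins that also binds the retinoblastoma protein. Its level was 1.60 in untreated WT, 4.29 in doxorubicin-treated WT, 1.99 in untreated p53-/- and 5.78 in doxorubicin-treated p53-/- MEFs, from signals of 3312, 7810, 3749 and 13989. Both treated samples were thus above both untreated samples. Id2 rose 2.69-fold (log2 ratio 1.43) in WT and 2.90-fold (1.54) in p53-/- MEFs. These 2 ratios differed by -0.11 (WT minus p53-/-), less than the 0.16 of spot error. Of all measured genes, 6.22% had a higher ratio than Id2 in WT MEFs and 4.08% in p53-/- MEFs. The Id2 probe (chr12:25778904-25778963, mm9) lies on a single stretch of the genome.

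Id1, which restrains bHLH factors and is a classic immediate target of BMP-activated SMADs, moved the same way. Its level was 3.58 in untreated WT, 6.95 in treated WT, 3.64 in untreated p53-/- and 8.88 in treated p53-/- MEFs (signals of 7415, 12642, 6849 and 21508). The untreated samples of the genotypes were nearly equal, with a log2 ratio of 0.03, and both treated samples were above them. Id1 was 2.44-fold higher with doxorubicin in p53-/- MEFs (log2 ratio 1.29) and 1.94-fold higher in WT MEFs (0.96), just short of 2-fold. The difference of these ratios was -0.33. The Id1 probe lies at chr2:152563083-152563142 (mm9).

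Id3, which is often induced together with Id1 by BMP ligands, behaved unlike Id1 and Id2. Its level was 8.83 in untreated WT, 4.43 in treated WT, 12.3 in untreated p53-/- and 10.3 in treated p53-/- MEFs (signals of 18317, 8055, 23091 and 24860). Treated WT MEFs had the lowest level of the 4 conditions, and both p53-/- samples were above both WT samples. With doxorubicin the log2 ratio was -1.00 in WT MEFs, a 1.99-fold lower level that just misses the 2-fold limit, and -0.26 in p53-/- MEFs. The difference of -0.74 was the largest among the 10 genes, and 15.2% of all genes had a lower one. Between the genotypes Id3 was 1.39-fold higher in untreated p53-/- than in untreated WT MEFs (log2 ratio 0.48) and 2.32-fold higher with doxorubicin (1.21). The 60 bases of the Id3 probe span 175 bases of the genome (chr4:135700075-135700249, mm9), so that the probe reads across a gap in the genome.

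Id4, an ID protein best known from neural and mammary progenitors, was read at levels of 1.73 in untreated WT, 2.12 in treated WT, 1.64 in untreated p53-/- and 2.62 in treated p53-/- MEFs. It was highest in treated p53-/- MEFs. Its log2 ratio with doxorubicin was 0.29 in WT and 0.68 in p53-/- MEFs, or 1.22-fold and 1.60-fold, and the difference was -0.39. The doxorubicin ratio was lower in WT than in p53-/- MEFs for 8 of the 10 genes. These were all 4 ID genes and 4 of the 6 SMAD genes. The differences of Id2 (-0.108), Smad3 (-0.040), Smad4 (-0.159) and Smad6 (-0.115) were within the 0.163 of spot error. Over all genes the median difference was 0.01. None of the 10 genes differed by 2-fold or more. Over all genes, 8.38% of 16538 differed by at least 2-fold toward WT and 9.86% toward p53-/- MEFs.

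**Figure D2:**
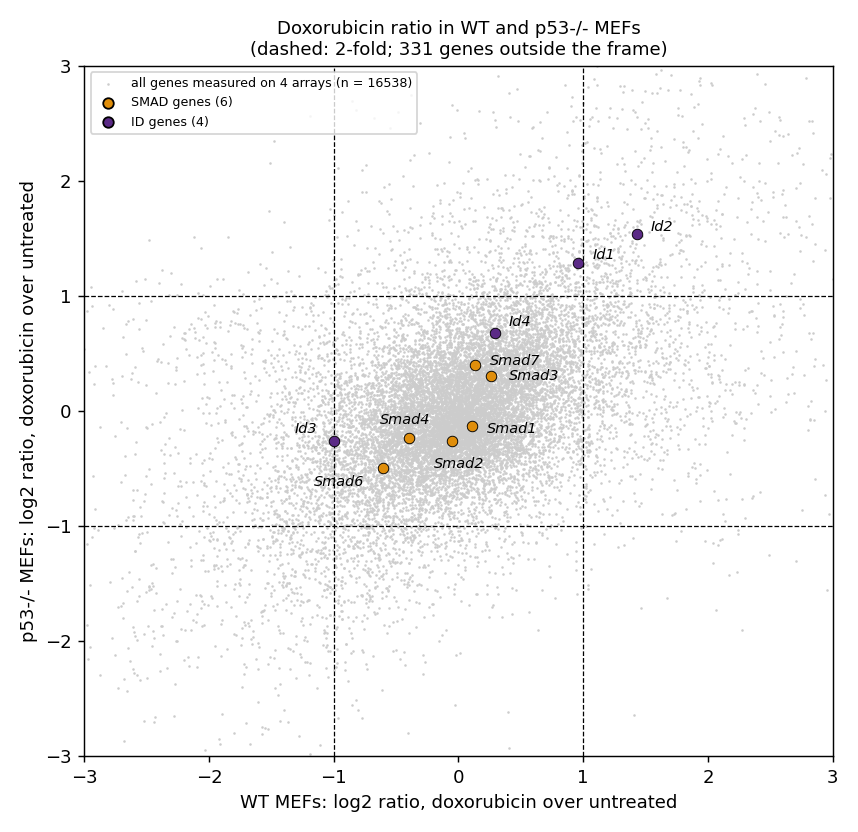
Log2 ratio of doxorubicin-treated over untreated WT MEFs (x axis) and p53-/- MEFs (y axis) for the 6 SMAD genes (orange), the 4 ID genes (purple) and the 16538 genes measured on all 4 arrays (gray), with dashed lines at 2-fold. Id2 is past 2-fold on both axes, Id1 on the p53-/- axis only, Id3 lies just inside the lower limit of the WT axis, and the SMAD genes lie inside both limits.

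The receptor SMADs among the 10 genes moved little. Smad1 transmits BMP signals. Its brighter probe (chr8:81863015-81863074, mm9) gave levels of 0.297 in untreated WT, 0.321 in treated WT, 0.407 in untreated p53-/- and 0.373 in treated p53-/- MEFs. Both p53-/- samples were above both WT samples, by log2 ratios of 0.45 without and 0.22 with doxorubicin, and the doxorubicin ratios were 0.11 in WT and -0.13 in p53-/- MEFs. The dimmer Smad1 probe gave the same order of genotypes, with 0.69 and 0.19. Its doxorubicin ratios were 0.31 in WT and -0.19 in p53-/- MEFs. The difference of the doxorubicin ratios was 0.24 with the brighter and 0.50 with the dimmer probe. Smad2, a transducer of TGF-beta and activin, had levels between 0.761 and 0.912, and its doxorubicin ratios were -0.06 (WT) and -0.26 (p53-/-) (chr18:76464903-76464962, mm9).

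Smad3, the other transducer of TGF-beta, had levels of 6.93 in untreated WT, 8.29 in treated WT, 5.43 in untreated p53-/- and 6.68 in treated p53-/- MEFs (chr9:63494574-63494633, mm9). It was 1.20-fold higher with doxorubicin in WT and 1.23-fold higher in p53-/- MEFs (log2 ratios of 0.26 and 0.30), and its level was lower in p53-/- than in WT MEFs both without (-0.35) and with (-0.31) doxorubicin. The dimmer Smad3 probe, whose signals of 130 to 256 are near background, gave 0.38 and 0.61 with doxorubicin, and 0.03 and 0.26 between the genotypes. The genotype ratios of Smad3 were thus below 0 with the brighter probe only. For the dimmer probe the untreated ratio of 0.03 was less than the 0.11 of spot error. Its untreated p53-/- signal of 130 was below the brightest negative control spot of that array.

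Smad5, the BMP transducer closest to Smad1 and not among the 10 genes, had levels of 7.49, 6.95, 6.77 and 7.53 in the same order with its brighter probe. With that probe the doxorubicin ratios were -0.11 (WT) and 0.15 (p53-/-), and the genotype ratios were -0.15 without and 0.11 with doxorubicin. A dimmer Smad5 probe, with signals of 263 to 593, had doxorubicin ratios of -0.05 (WT) and 0.36 (p53-/-). Its log2 ratios of p53-/- over WT MEFs were 0.36 without and 0.76 with doxorubicin. Smad9, the remaining BMP transducer, had signals of 90.1, 57.8, 175 and 352, all called well above background. Only that of treated p53-/- MEFs exceeded the brightest negative control spot of its array. The doxorubicin ratios of Smad9 were -0.45 (WT) and 0.65 (p53-/-), a difference of -1.10. Its log2 ratios of p53-/- over WT MEFs were 1.10 without and 2.19 with doxorubicin. Each of these ratios used a signal below the brightest negative control spot of its array.

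Smad4, the partner that the receptor SMADs of both branches share, was read at levels of 6.41 in untreated WT, 4.88 in treated WT, 6.08 in untreated p53-/- and 5.16 in treated p53-/- MEFs (chr18:73798670-73798729, mm9). Both treated samples were below both untreated samples. The log2 ratio with doxorubicin was -0.40 in WT and -0.24 in p53-/- MEFs, and the other Smad4 probe gave -0.53 and -0.36. The genotypes differed by -0.08 without and 0.08 with doxorubicin, both less than the 0.11 of spot error, and by -0.26 and -0.09 with the other probe.

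The 2 inhibitory SMADs went different ways. Smad6, which mainly blocks BMP receptors, had levels of 0.755 in untreated WT, 0.495 in treated WT, 0.882 in untreated p53-/- and 0.626 in treated p53-/- MEFs (chr9:63800980-63801039, mm9). Both treated samples were below both untreated samples, and the level was 1.52-fold lower with doxorubicin in WT MEFs (log2 ratio -0.61) and 1.41-fold lower in p53-/- MEFs (-0.49). Smad7, which blocks TGF-beta receptors and recruits ubiquitin ligases to them, had levels of 1.27, 1.39, 1.30 and 1.71 in the same order (chr18:75555371-75555430, mm9). Its log2 ratio with doxorubicin was 0.13 in WT and 0.40 in p53-/- MEFs, and the highest level was that of treated p53-/- MEFs. With array median scaling the Smad7 ratios were -0.14 in WT and 0.10 in p53-/- MEFs, and those of Smad6 were -0.88 and -0.79. All 6 SMAD genes stayed within 2-fold in each of the 5 comparisons.

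**Figure D3:**
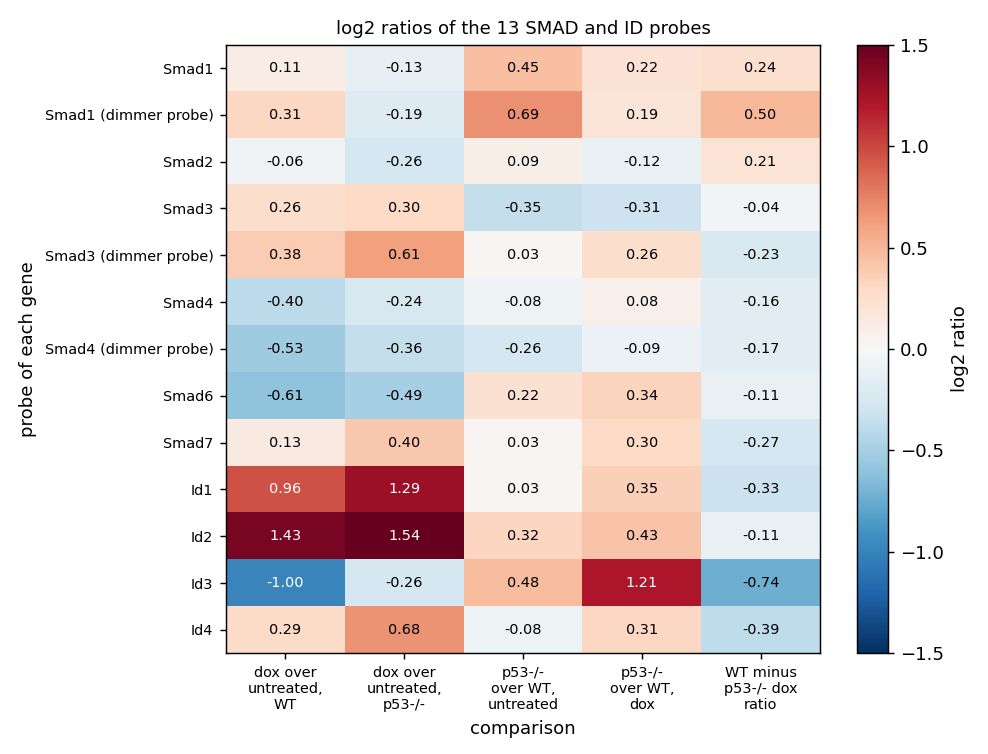
Log2 ratios of the 13 probes of the SMAD and ID genes (rows) in the 4 comparisons of arrays and in the difference of the doxorubicin ratios, WT minus p53-/- (columns), with color from -1.5 (blue) to 1.5 (red). Genes with 2 probes have the brighter probe first. The Smad3 probes differ in sign between the genotypes while the Smad1 probes do not. The untreated genotype ratio of the dimmer Smad3 probe, 0.03, is less than the 0.11 of spot error. The Smad4 probes differ in sign between the treated genotypes, with 0.08 and -0.09, both less than the 0.11 of spot error.

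Between the untreated genotypes, 0 of the 10 genes were at least 2-fold higher in p53-/- MEFs and 0 were lower, where 2.15% of 17317 genes were higher and 2.62% lower. The largest ratios there were those of Id3 (0.48), Smad1 (0.45) and Smad3 (-0.35). Between the doxorubicin-treated genotypes, 1 of the 10 (Id3) was at least 2-fold higher in p53-/- MEFs, against 11.9% of 17922 genes, and 0 were lower, against 10.3%. The 10 genes had a median log2 ratio of 0.06 without and 0.31 with doxorubicin, and 8 of the 10 were above 0 in the latter, with Smad2 and Smad3 below. These comparisons share arrays with those of doxorubicin, so that they are not separate evidence.

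The profiles of the 10 genes over the 4 arrays were compared as distances between levels centered on each gene's own mean (log2 units over 4 arrays). The nearest pairs were Smad7 and Id4 (0.23), Smad2 and Smad4 (0.24) and Smad4 and Smad6 (0.37), and the distance between Id1 and Id2 was 0.42. Id3 was nearest to Smad6 (0.65) and farthest from Id2 (2.18), the widest distance of all pairs. Among 16537 other genes measured on all 4 arrays, the 3 nearest to Id2, the gene with the widest span, were Ormdl2 (0.06), Muc13 (0.11) and Bglap2 (0.12). Ormdl2, a regulator of sphingolipid synthesis, changed with doxorubicin by a log2 ratio of 1.42 in WT MEFs and 1.45 in p53-/- MEFs. Bglap2, an osteocalcin gene, had 1.39 and 1.46. Muc13, a membrane mucin, had 1.43 and 1.65, and its untreated signals of 79.4 and 82.5 were below the brightest negative control spots.

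Other genes of these pathways were read as 5 lists, whose counts stand against the shares over all genes given above, for doxorubicin 11.0% higher and 10.4% lower in WT and 9.24% higher and 6.89% lower in p53-/- MEFs. The lists share some genes and are not separate evidence. Among the shared genes, Nog and Grem1 are in both BMP lists, and Tgif1 is in those of SMAD partners and TGF-beta-SMAD targets. Of 24 partners and regulators of SMAD proteins, 23 were measured in WT MEFs, where 1 was at least 2-fold higher with doxorubicin, 2 were lower and the median log2 ratio was 0.04. In p53-/- MEFs 21 were measured, 0 were higher, 6 were lower and the median was -0.51. Ski, a repressor that sits on SMAD complexes, had levels of 0.273 and 0.555 in untreated and treated WT MEFs and of 0.400 and 0.200 in the p53-/- MEFs. It was thus higher with doxorubicin in WT (log2 ratio 1.02) and lower in p53-/- MEFs (-1.00), a difference of 2.03. Trim33, a ubiquitin ligase that binds SMADs, was lower in both, with -1.08 and -1.56. The repressor Zeb2 was lower in WT MEFs (-1.10) and had -0.60 in p53-/- MEFs. Zfyve9, the anchor that presents SMADs to receptors, Zfp423, a cofactor of BMP SMADs, and the SMAD partner Runx1 were lower in p53-/- MEFs, with log2 ratios of -1.67, -1.53 and -1.56, and had -0.21, 0.31 and -0.36 in WT MEFs. The corepressor Tgif1 had 0.67 and 0.57.

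Upstream of the SMADs, 22 of 23 BMP ligands, receptors and antagonists were measured in WT MEFs. Doxorubicin went with at least 2-fold higher levels of 8 (Bmp2, Bmp6, Bmp7, Gdf5, Gdf6, Eng, Nog and Fst) and lower levels of 4 (among them Bmpr1b, Acvr2a and Grem1), and the median log2 ratio was 0.46, where 11.0% of all genes were higher and 10.4% lower. In p53-/- MEFs 3 of 21 were higher (Bmp2, Nog and Fst), 4 were lower (among them Bmpr1a, Bmpr1b and Chrd) and the median was -0.37, where 9.24% of all genes were higher and 6.89% lower. The ligand Bmp2 had levels of 0.118 in untreated WT, 0.605 in treated WT, 0.246 in untreated p53-/- and 0.947 in treated p53-/- MEFs, so that both treated samples were above both untreated samples (log2 ratios of 2.36 and 1.94). The BMP antagonist Nog had 2.39 in WT and 1.68 in p53-/- MEFs, the latter from an untreated signal below the brightest negative control spot. The ligands Gdf5 and Gdf6 were higher in WT MEFs, by 2.33 and 2.40, and had 0.86 and 0.74 in p53-/- MEFs. The antagonist Chrd had 0.77 in WT and -1.62 in p53-/- MEFs, with levels of 0.0459, 0.0784, 0.156 and 0.0505 that are near background.

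Downstream, the 23 TGF-beta-SMAD target genes were all measured. With doxorubicin 2 were at least 2-fold higher and 3 lower in WT MEFs (median log2 ratio -0.16), and 3 were higher and 2 lower in p53-/- MEFs (median -0.25), against 11.0% higher and 10.4% lower of all genes in WT and 9.24% and 6.89% in p53-/- MEFs. The lipase inhibitor Angptl4 was higher in both, by 2.33 and 3.36, and so was the early response gene Klf10, by 1.11 and 1.86. The matrix genes Tgfbi and Postn and the repressor Snai2 were lower in WT MEFs, with -2.36, -1.53 and -1.48, and had -0.05, -0.75 and -0.05 in p53-/- MEFs. Tgfbi had levels of 15.2 and 2.97 in untreated and treated WT MEFs and of 19.8 and 19.1 in the p53-/- MEFs, so that treated WT MEFs stood apart from the other 3 conditions. Pmepa1, an inhibitor of TGF-beta signaling, was lower in p53-/- MEFs (-1.71) and had -0.24 in WT MEFs. Junb, a component of AP-1, was higher in p53-/- MEFs (1.52), from an untreated signal below the brightest negative control spot, and had 0.82 in WT MEFs.

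Of 13 other BMP-SMAD target genes, 11 were measured in WT MEFs with 2 higher and 3 lower (median -0.24), and 10 in p53-/- MEFs with 2 higher and 1 lower (median 0.20). Of all genes, 11.0% were higher and 10.4% lower in WT MEFs, and 9.24% and 6.89% in p53-/- MEFs. Hey2, a bHLH repressor, and Nog were higher in both genotypes, Hey2 by 1.11 and 1.25, and the untreated p53-/- signals of both were below the brightest negative control spot. The homeobox gene Dlx5 was lower in both, with -2.48 and -1.53. The homeobox gene Msx1 and the antagonist Grem1 were lower in WT MEFs, with -1.31 and -1.99, and had -0.66 and -0.37 in p53-/- MEFs. Hey1 had -0.59 in WT and 0.73 in p53-/- MEFs, and neither value reached 2-fold. Between the treated genotypes, 5 of 11 of these targets (Hey1, Dlx5, Atoh8, Grem1 and Gata2) were at least 2-fold higher in p53-/- MEFs and 0 were lower, with a median of 0.66, where 11.9% of all genes were higher and 10.3% lower. Gata2 and Atoh8 were already higher in untreated p53-/- MEFs, by 1.37 and 0.82, while Hey1, Dlx5 and Grem1 had -0.19, 0.23 and -0.05 there. The ID genes, which are BMP targets too, had a median of 0.39 between the treated genotypes. The other lists had medians below 0 in that comparison. These were -0.36 for the SMAD partners and -0.63 for the BMP ligands, receptors and antagonists. The TGF-beta-SMAD targets had -0.32, and the bHLH and ETS factors that ID proteins bind had -0.23. With quantile normalization the medians of these last lists were nearer to no change, at -0.10 and -0.05.

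The bHLH and ETS factors that ID proteins bind were read as a list of 17, of which 14 were measured. In WT MEFs 2 were at least 2-fold higher with doxorubicin (Tcf21 and Hand1) and 3 lower (Tcf12, Twist2 and Hand2), with a median of 0.31. In p53-/- MEFs 0 were higher and 2 lower (Tcf4 and Hand1), with a median of -0.32. The shares of all genes were 11.0% higher and 10.4% lower in WT MEFs, and 9.24% and 6.89% in p53-/- MEFs. The E protein genes, whose products are the main partners of ID proteins, were not higher with doxorubicin in either genotype. Tcf12 had levels of 3.03 and 1.32 in untreated and treated WT MEFs and of 2.37 and 1.30 in the p53-/- MEFs, so that both treated samples were below both untreated samples (log2 ratios of -1.20 and -0.87). Tcf4 had -0.30 in WT and -1.04 in p53-/- MEFs, and Tcf3 had -0.64 and -0.27. Twist2, a mesenchymal bHLH repressor, had -1.30 and -0.80. The mesenchymal factor Tcf21 had 2.03 and 0.24, and the heart and limb factor Hand1 had 1.98 and -1.13, both from untreated WT signals below the brightest negative control spot.

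**Figure D4:**
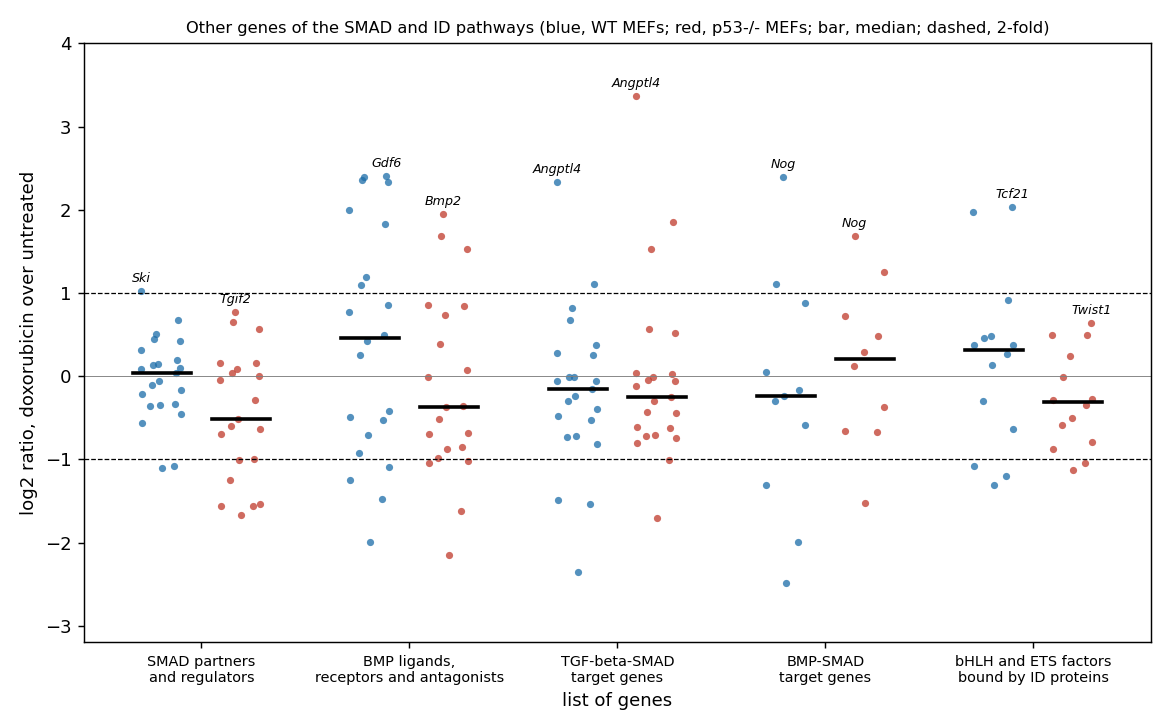
Log2 ratio of doxorubicin-treated over untreated MEFs (y axis) for the measured genes of 5 lists (x axis), with WT in blue, p53-/- in red, the median as a black bar and dashed lines at 2-fold; the highest gene of each group is named. The median of the SMAD partners was 0.04 in WT and -0.51 in p53-/- MEFs, and that of the BMP ligands, receptors and antagonists was 0.46 and -0.37.

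The ratios depend on how the arrays were scaled. Scaling each array to its median in place of its 75th percentile lowered the doxorubicin ratio of all genes by 0.28 in WT and 0.30 in p53-/- MEFs, and the split of genes called at least 2-fold higher against lower went from 1935 and 1831 to 1321 and 2797 in WT MEFs and from 1569 and 1170 to 956 and 2104 in p53-/- MEFs. With it, Id2 remained at least 2-fold higher in both genotypes (1.15 and 1.24), Id1 fell just short in p53-/- MEFs (0.99), Id3 was at least 2-fold lower in WT MEFs (-1.27), and the WT ratios of Smad1, Smad3 and Smad7 turned below 0 (-0.17, -0.02 and -0.14). The median of the SMAD partners in WT MEFs (-0.24) and that of the BMP targets in p53-/- MEFs (-0.10) changed sign as well. Quantile normalization also turned the median of the SMAD partners in WT MEFs below 0 (-0.03).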

How the data were processed

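Total RNA (200 ng per sample) was labeled with Cy3 by the authors and hybridized to 4 one-color Agilent arrays, 1 per condition, on 1 slide. The deposited intensity of each spot (Feature Extraction 10.7.3.1) had its background and spatial trend removed by that program, and is not normalized between arrays. The mean and local background intensities that the authors deposited served 1 alternative, and a deposited table of intensities another. Fold changes that the authors computed with the Subio Platform were not used here.

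Control spots and outlier spots (145 to 168 per array) were left out, and 0 spots were saturated. Log2 intensities were averaged per probe and the 75th percentile of the array was subtracted. The probe brightest on average over the arrays stood for a gene, and ratios were taken where Feature Extraction called the spots on both arrays well above background. That call was given to 56.9% to 62.9% of 39429 probes. Among 153 negative control spots per array, the brightest read 108 in untreated WT, 77.5 in treated WT, 250.1 in untreated p53-/- and 120 in treated p53-/- MEFs. No p-value was calculated, and the number of arrays limits the precision. The SD of repeat spots came from 253 probes spotted 10 times each. Gene names are those in the files, and probe positions are of build mm9.

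The 10 genes and the lists were chosen with earlier results of these data known. Named were the 10 genes with all their probes, Smad5, Smad9, Trp53, Cdkn1a, from each list the 4 largest doxorubicin ratios in each genotype, and the 3 genes nearest to Id2. A gene that the rule names is not reported here by name, though it is kept in counts and medians. Other genes are named to spell out counts of members called or markers checked, and Tcf3 was added after its values were seen to complete the E proteins.

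Alternatives were array median scaling, quantile normalization, normexp (offset 50), 3 other filters on dim probes, averaging the probes of a gene, the deposited table, and calls at 1.5-fold or at 3-fold. With 1 slide, a slide block could not be run. The steps were tested on simulated data. Python 3.11.15 (numpy 2.4.6, pandas 2.3.3, matplotlib 3.10.9) and R 4.3.3 (limma 3.58.1, for normexp only) were used.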

Additional observations from a re-analysis of the deposited data

How the results depend on the processing

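Each of the 10 counts of members called was recomputed under 10 alternatives. Array median scaling, which lowers all doxorubicin ratios, gave 1 member at least 2-fold lower in WT MEFs (Id3) in place of 0, and 1 higher in p53-/- MEFs (Id2) in place of 2. Normexp background correction gave 1 lower in WT MEFs (Id3, log2 ratio -1.01) in place of 0. At a threshold of 1.5-fold, 2 were higher and 2 lower in WT MEFs, and the difference of the doxorubicin ratios was past it toward p53-/- MEFs for 1. At 3-fold, 0 were higher in WT MEFs, 0 in p53-/- MEFs and 0 in treated p53-/- over treated WT MEFs. Other counts stayed within 1.5 times the reported value. Of the 50 log2 ratios and differences of the 10 genes, 20 moved by more than the spot error with array median scaling. With the mean of a gene's probes 4 did so, and with quantile normalization or normexp 0. The other filters on dim probes could not move these values, since the probe standing for each gene passed them on all 4 arrays. The deposited table could not either, since it holds the same processed intensities. None of the called ratios turned its direction. Id3 in WT MEFs lay between -1.27 and -1.00, at the 2-fold limit, so its call there rests on the processing. No paired analysis was possible because each condition had 1 array. Leaving out a replicate could not be run for the same reason. Dim probes, such as the dimmer Smad3 probe, are limited by signal over background.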
